A study of Mus musculus with 12 samples.

Results

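Cytosolic ribosomal protein genes encode the proteins of the large and small subunits of the ribosomes that translate nuclear messages. They were chosen by symbol and level: protein-coding genes of the GRCm38 annotation named Rpl or Rps followed by a digit, or Rplp0, Rplp1, Rplp2 or Rpsa, without the S6 kinases, symbols with -ps and Rps19bp1, and averaging 100 normalized counts or more in both tissue tables. The rule found 82 genes among 55487 gene rows, 33 of the small subunit, 46 of the large subunit and 3 of the P stalk. By symbol alone 85 genes qualified. The 3 under the minimum were Rpl3l, a muscle paralogue of Rpl3, and Rpl10l and Rpl39l, paralogues of Rpl10 and Rpl39 known from testis. Rpl3l averaged 23.1 normalized counts in cortex and 15.5 in hippocampus, Rpl39l was at 12 in WT cortex library 2 and at 0 elsewhere, and Rpl10l was at 0 in all 12 libraries. The members nearest to the minimum were Rps27rt, with 277 in cortex and 304 in hippocampus, and Rps27l, with 348 and 514.

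RNA was measured by sequencing in cerebral cortex and hippocampus of C57BL/6 mice, and the question was which transcripts differ without mTert, the gene for the reverse transcriptase of telomerase. The 12 libraries form 4 groups of 3: mTert KO (G1) cortex, mTert WT cortex, mTert KO (G1) hippocampus and mTert WT hippocampus, called KO and WT here. The deposited data name the KO as G1 Homo, read here as homozygous, and the sample titles do not explain G1. The labels used here state neither age nor sex, nor that each library is a different mouse. P-values therefore measure variation among these 12 samples, part of which may be technical. The libraries held 68424934 to 86639113 reads.

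A ribosome holds most of its proteins in equal numbers, with more of the acidic stalk proteins Rplp1 and Rplp2, and mammalian cells make most of them from single expressed genes scattered over the chromosomes. Most of these messages begin with a C followed by a run of pyrimidines, the 5′ terminal oligopyrimidine (TOP) motif, through which mTORC1 and the RNA-binding protein LARP1 set how much they are translated and how stable they are. Ribosomal protein genes have also left many processed pseudogenes, intronless copies of the message in the genome, whose reads are hard to tell from those of the parent gene. In neurons part of the messages is carried into dendrites and axons.

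The annotated starts of members described below differ in the pyrimidine runs near them. A run marked here need not begin at the first base of the message, as the TOP motif does. Each window holds 30 bases of RefSeq promoter sequence (build GRCm38.p6), 10 before the annotated start and the rest from it on, and capitals mark a run of at least 6 pyrimidines that begins within 10 bases of that start. Shown are the 8 members with the smallest p in hippocampus among those with a promoter entry, followed by Rps6, the S6 kinase substrate, and by Rps27 and its intronless copy Rps27rt.
Rps2 (chr17:24720053-24720082, plus strand): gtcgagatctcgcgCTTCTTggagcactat
Rpl4 (chr9:64173377-64173406, plus strand): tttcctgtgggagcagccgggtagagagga
Rpl14 (chr9:120571507-120571536, plus strand): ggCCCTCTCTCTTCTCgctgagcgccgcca
Rps7 (chr12:28635934-28635963, minus strand): cggtttccacccacctacttccgctgtccc
Rpl27a (chr7:109519185-109519214, plus strand): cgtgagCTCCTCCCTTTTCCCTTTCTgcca
Rpl6 (chr5:121204491-121204520, plus strand): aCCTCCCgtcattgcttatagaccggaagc
Rps18 (chr17:33955646-33955675, minus strand): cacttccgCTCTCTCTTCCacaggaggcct
Rps10 (chr17:27635225-27635254, minus strand): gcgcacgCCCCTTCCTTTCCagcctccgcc
Rps6 (chr4:86857348-86857377, minus strand): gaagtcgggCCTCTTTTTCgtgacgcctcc
Rps27 (chr3:90213629-90213658, minus strand): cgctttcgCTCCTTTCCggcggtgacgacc
Rps27rt (chr9:114982720-114982749, minus strand): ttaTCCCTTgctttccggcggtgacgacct
The longest run of these belongs to Rpl27a, with 20 pyrimidines, while Rps7 has no run of 6 in its window. Rpl4 has none that begins within 10 bases of the start, but the first bases of its window are the end of a run of 14 pyrimidines that begins 18 bases before the start. Rpl6 and Rps27rt have runs of 6 that end before the start. Of the members, 62 had promoter entries, with 73 windows. A run of at least 6 pyrimidines that begins within 10 bases of the start was found in 42.5% of those windows, against 23.1% of all 32851 promoter windows. A run of at least 8 was found in 28.8% against 9.21%.

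In the KO libraries the targeted gene Tert was at 0 normalized counts in 5 of 6 libraries and at 6.31 in KO hippocampus library 2. WT cortex held 105 to 241 normalized counts and WT hippocampus 128 to 184. At this depth 0 reads leave room for up to 3, counting error only. One library stood apart: WT cortex library 2 gave the highest value of the 6 cortex libraries for all 82 members, against 30.4% of the 21945 genes tested in cortex. Its excess over the mean of WT cortex libraries 1 and 3 had a median of 0.56 over the members on the log2 scale, with a range of 0.20 to 1.40. Mitochondrially encoded transcripts made up 6.12% of its signal, against 4.43% and 4.58% in the other WT cortex libraries, and protein-coding genes of up to 2 kb made up 11.9%, against 8.71% and 8.75%. Cortical fold changes, and counts of limma calls on the deposited values, are therefore given with and without this library. The cause of its difference was not tested.

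**Figure D1:**
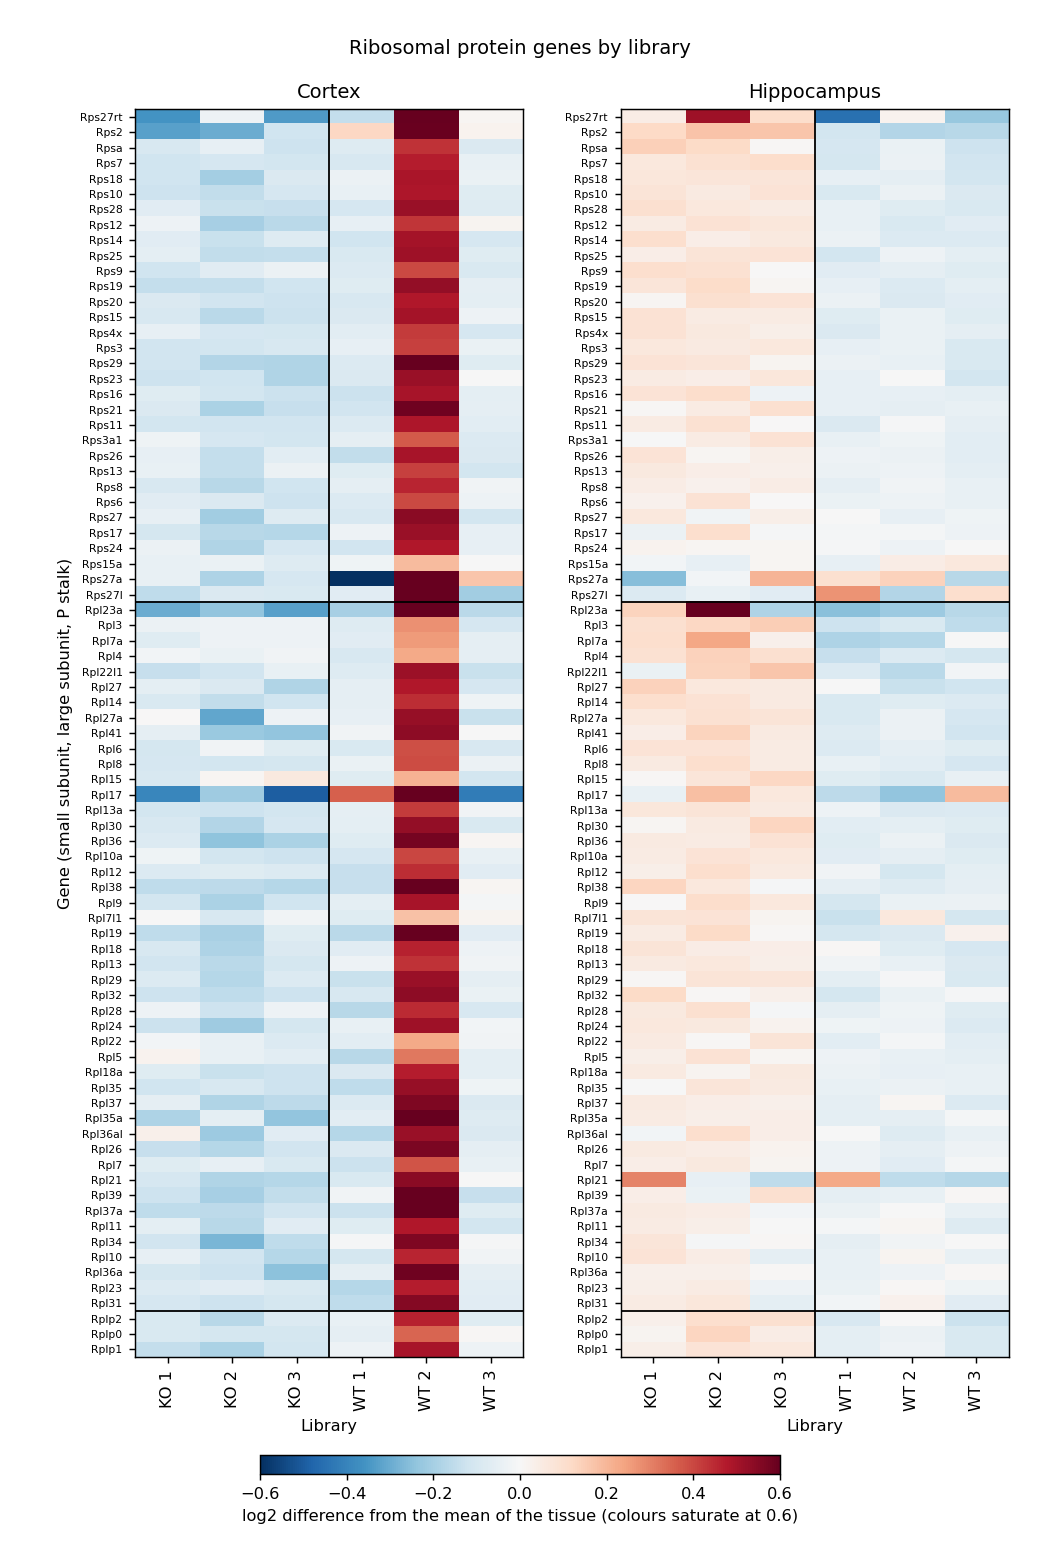
Each row is 1 of 81 of the genes and each column 1 library, with KO libraries left of WT libraries. Colour is the log2 difference of log2(normalized count + 1) from the mean of the 6 libraries of that tissue. WT cortex library 2 is red for all 81 genes shown, and in hippocampus most genes are red in the 3 KO libraries and blue in the 3 WT libraries.

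The members together took a small part of each library. In KO cortex they took 0.766%, 0.740% and 0.758% of all signal, and in WT cortex 0.776%, 1.18% and 0.798%. The 3 KO cortex values thus lie below all WT cortex values, by little apart from WT library 2. In KO hippocampus the members took 0.939%, 0.945% and 0.927%, and in WT hippocampus 0.905%, 0.855% and 0.870%. The hippocampal groups do not overlap either, and here KO lies above WT. The means were 0.755% ± 0.0132 in KO cortex and 0.919% ± 0.229 in WT cortex, and 0.937% ± 0.0095 in KO hippocampus and 0.876% ± 0.0256 in WT hippocampus (SD, n = 3 each). In bulk tissue fewer cells of a type and less RNA per cell cannot be told apart.

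**Figure D2:**
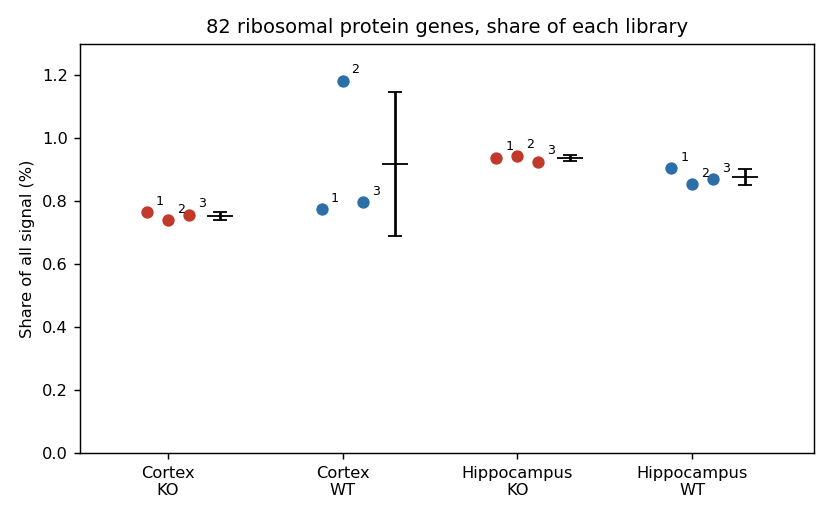
The y axis is the summed signal of the 82 genes as a percent of all signal in a library, with numbered points for libraries and bars for mean ± SD (n = 3). KO hippocampus libraries lie between 0.927% and 0.945%, above WT hippocampus libraries at 0.855% to 0.905%, and WT cortex library 2 stands at 1.18%.

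In hippocampus the ribosomal protein genes were modestly higher in KO than in WT. Of the 82 members 32 rose and 0 fell, at a limma adjusted p under 0.05 over all 22337 genes tested, where 14.1% of genes rose and 15.1% fell. The members' log2 fold changes, KO over WT, had a median of 0.11, a fold of 1.08, with a range of -0.13 to 0.44, and 79 of 82 were positive. The median over all genes tested was 0.02. All 3 KO libraries were above all 3 WT libraries for 63 members and below for 0, against 24.3% and 21.5% of all genes. Among the members that rose the log2 fold change lay between 0.12 and 0.30, so the rise of single genes was small beside the spread of levels within the family. The count depended on the libraries: leaving out 1 library at a time gave 4 to 28 calls, with 4 without KO library 2 or without WT library 3, 7 without KO library 1, 10 without KO library 3 and 21 without WT library 1. The share of all genes called in each of these fits was not counted, so these counts cannot be set against a background. On recovered reads the edgeR quasi-likelihood test called 23 members higher, against 13.5% of genes, and DESeq2 called 27, also against 13.5%.

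The small subunit carries the messenger channel and the decoding site, and 15 of its 33 members rose in hippocampus, with a median log2 fold change of 0.11. Rps2, a protein at the messenger entry of the small subunit (chr17:24718116-24721929), held 9174, 9504 and 9480 normalized counts in KO hippocampus, against 7824, 7484 and 7542 in WT hippocampus. The groups were far apart for Rps2, with a log2 fold change of 0.30 ± 0.04 (SE), a fold of 1.23 and a limma adjusted p of 0.0011. It was called under all 18 alternatives tried in hippocampus. Rps7, which can bind the p53 ubiquitin ligase Mdm2, held 10614, 10818 and 10925 in KO hippocampus and 9449, 9921 and 9388 in WT hippocampus, a log2 fold change of 0.17 ± 0.04 with a limma adjusted p of 0.014. Rps18, a protein of the subunit's head near the transfer RNA sites, held 7790, 7812 and 7794 in KO hippocampus and 7171, 7137 and 6876 in WT hippocampus. Its log2 fold change was 0.14 ± 0.04, with a limma adjusted p of 0.020. Rps10, mutated in some patients with Diamond-Blackfan anaemia, a failure of red cell production, differed by 0.14 ± 0.04 (limma adjusted p = 0.022), and its groups did not overlap.

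The other small-subunit members that rose were Rps3, Rps4x, Rps9, Rps12, Rps14, Rps15, Rps19, Rps20, Rps25, Rps28 and Rpsa, each by 0.12 to 0.18 on the log2 scale. Rpsa, also known as a laminin receptor, held 17661, 17344 and 16078 in KO hippocampus and 14914, 15564 and 14698 in WT hippocampus. Rps19, the gene most often mutated in Diamond-Blackfan anaemia, held 7069, 7246 and 6782 in KO hippocampus against 6490, 6345 and 6454 in WT hippocampus. Rps6, the substrate of the S6 kinases below mTORC1, had values of 10124, 10544 and 9949 in KO hippocampus and 9662, 9718 and 9642 in WT hippocampus. The Rps6 groups did not overlap, but its log2 fold change of 0.08 ± 0.04 was not called (limma adjusted p = 0.16).

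Only 3 members had a negative log2 fold change in hippocampus, all of the small subunit and none called. Rps27l, a paralogue of Rps27 known as a p53 target, held 483, 495 and 488 in KO hippocampus and 617, 453 and 548 in WT hippocampus, so the groups overlapped (-0.13 ± 0.11, limma adjusted p = 0.43). Rps27a, made as a fusion with ubiquitin, held 4396, 5181 and 6047 in KO hippocampus and 5598, 5768 and 4676 in WT hippocampus. Rps15a, a core protein of the small subunit, held 8600, 8411 and 8756 in KO hippocampus and 8390, 8958 and 9072 in WT hippocampus, and these groups overlapped too.

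The large subunit holds the peptidyl transferase centre and the tunnel through which the new chain leaves, and 15 of its 46 members rose in hippocampus. All 46 log2 fold changes were positive, with a median of 0.11. Rpl3, which reaches toward the peptidyl transferase centre (chr15:80077791-80091868), held 28120, 28666 and 29064 in KO hippocampus and 24088, 24638 and 23644 in WT hippocampus. The Rpl3 groups were well apart, with a log2 fold change of 0.25 ± 0.04 and a limma adjusted p of 0.0029. Rpl4, which lines the exit tunnel (chr9:64173375-64178666), held 33143, 34242 and 33265 in KO hippocampus and 28247, 29360 and 28918 in WT hippocampus, a log2 fold change of 0.22 ± 0.04 with a limma adjusted p of 0.0053. Like Rps2, both were called under all 18 alternatives. Rpl14, a surface protein of the large subunit, held 8448, 8368 and 8172 in KO hippocampus and 7388, 7488 and 7432 in WT hippocampus (0.16 ± 0.03, limma adjusted p = 0.011). Rpl27a held 14619, 14900 and 14751 in KO hippocampus and 13140, 13656 and 13048 in WT hippocampus (0.15 ± 0.04, limma adjusted p = 0.017), and its groups stood apart as well.

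Rpl41, which encodes one of the shortest proteins of the mouse, held 10356, 11071 and 10458 in KO hippocampus and 9554, 9845 and 9320 in WT hippocampus and rose by 0.15 ± 0.04. The other large-subunit members that rose were Rpl6, Rpl7a, Rpl8, Rpl10a, Rpl12, Rpl13a, Rpl27 and Rpl30, with Rpl7a highest at 0.24 ± 0.07. Rpl36 rose by 0.13 ± 0.04 and Rpl15 by 0.14 ± 0.04, with limma adjusted p of 0.033 and 0.046. The largest log2 fold change of the large subunit was that of Rpl23a, at the tunnel's exit where the signal recognition particle docks. It was not called: Rpl23a held 3030, 4438 and 2422 in KO hippocampus and 2315, 2374 and 2459 in WT hippocampus, so KO library 2 set most of its 0.42 ± 0.19 and KO library 3 lay inside the WT range. Rps27rt had the largest value of all members, 0.44 ± 0.17, with 307, 424 and 320 in KO hippocampus against 218, 302 and 254 in WT hippocampus. Its groups were apart by a narrow margin, and it was not called (limma adjusted p = 0.085).

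The P stalk is the lateral arm of the large subunit that recruits elongation factors. Rplp1 held 19891, 20528 and 20280 in KO hippocampus and 18626, 18993 and 18213 in WT hippocampus, and Rplp2 held 7632, 8001 and 7983 against 6972, 7444 and 6830. Both rose, by 0.12 ± 0.04 and 0.15 ± 0.05, with limma adjusted p of 0.043 and 0.039. Rplp0, the base of the stalk, held 13216, 14270 and 13457 in KO hippocampus and 12566, 12735 and 12257 in WT hippocampus. Its log2 fold change of 0.12 ± 0.04 was the same in size, and its limma adjusted p was 0.062.

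**Figure D3:**
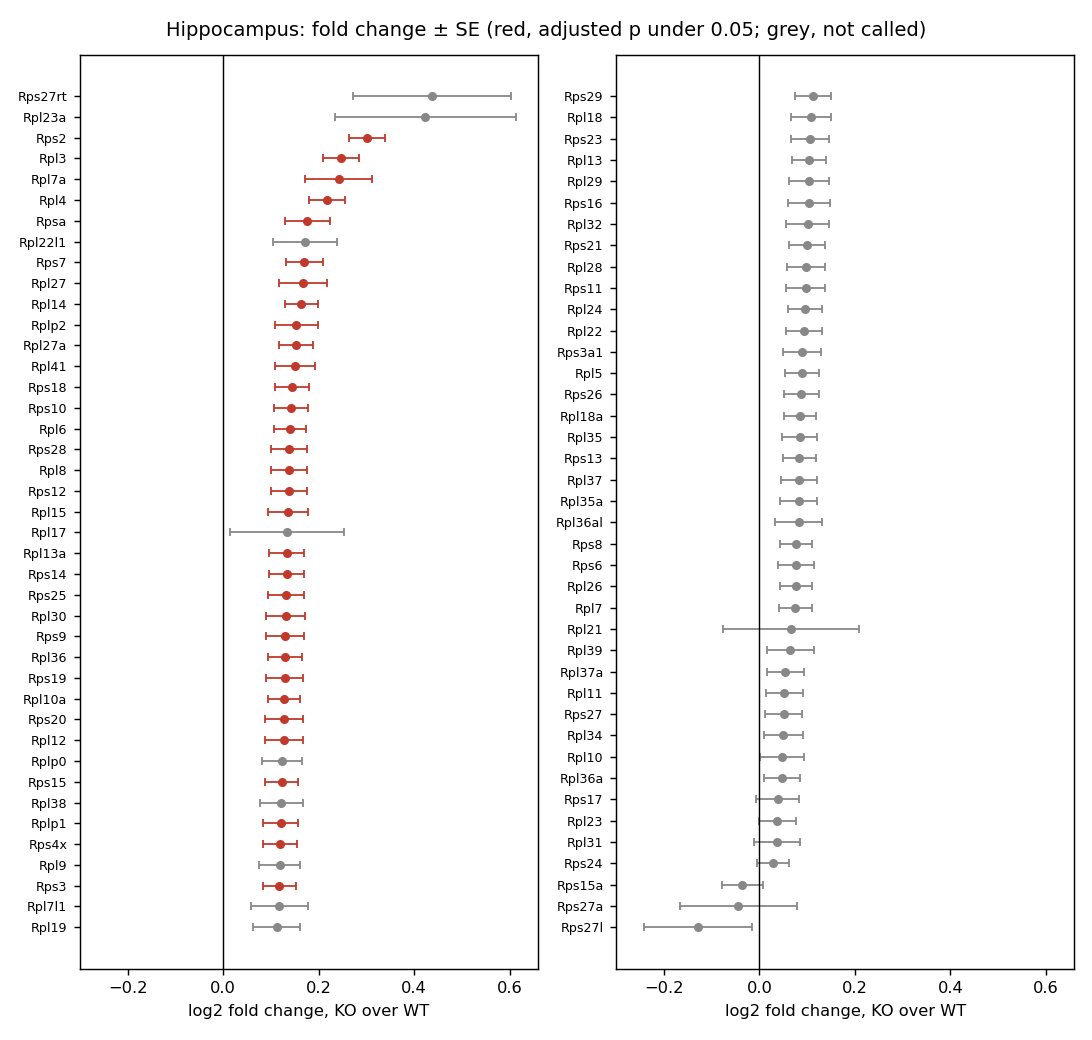
Points are log2 fold changes, KO over WT hippocampus, and bars their SE (3 libraries per group), sorted from high to low over both panels, for 81 of the 82 members. The 32 called members, in red, lie between 0.12 and 0.30, and the 2 members above them, Rps27rt and Rpl23a, have wide bars and are grey.

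Groups of members by textbook role were drawn up after the values were seen and are given as counts and medians with no test, to be read beside the 32 of 82 members, 39.0%, and the 14.1% of all genes that rose. Of 8 proteins along the messenger path and the decoding site 5 rose in hippocampus (Rps2, Rps3, Rps9, Rps14 and Rps28), with a group median log2 fold change of 0.12. Of 8 proteins in the exit tunnel and at its rim (Rpl4, Rpl17, Rpl19, Rpl23a, Rpl26, Rpl31, Rpl35 and Rpl39), 1 rose, Rpl4, with a group median of 0.10. Rpl5 and Rpl11, which enter the ribosome with the 5S RNA and can bind Mdm2, had 0.09 and 0.05, and neither was called. Of a selection of 9 genes mutated in Diamond-Blackfan anaemia, 3 rose (Rps7, Rps10 and Rps19), with a group median of 0.09. This selection need not hold every member mutated in that disease, so its count does not set disease genes apart from the others.

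Gene length moved with genotype in hippocampus, and ribosomal protein genes are short: their exonic length had a median of 1775 bases, against 4296 for the 15967 protein-coding genes tested. Protein-coding genes of over 12 kb took 8.82% to 8.93% of the signal in KO hippocampus and 11.9% to 12.6% in WT hippocampus. Among other protein-coding genes of 1 to 2 kb, 14.4% rose and the median log2 fold change was 0.07, and of those of 2 to 4 kb 23.3% rose, with a median of 0.10. The members of these classes had medians of 0.10 and 0.13, with 8 of 34 and 18 of 30 called. Among genes of over 12 kb 71% fell. After a smooth trend along length was taken out of each library, 74 of 82 members rose, with a median of 0.24, and 27.7% of all genes did. Removing that trend also moved the median of all genes to 0.14. The part of gene length in the members' change was not tested otherwise.

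Other short housekeeping families moved in the same direction in hippocampus, where 14.1% of all genes rose and 15.1% fell. Of 78 mitochondrial ribosomal protein genes 18 rose and 0 fell, with a median log2 fold change of 0.11, and of 46 nuclear genes for complex I of the respiratory chain 16 rose and 0 fell, with a median of 0.10.

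In cortex no member was called, either way, with the 6 libraries. All 82 log2 fold changes were negative, with a median of -0.23 and a range of -0.73 to -0.02, while the median over all genes tested was -0.01. Across all 21945 genes 1.94% were called by limma at an adjusted p under 0.05. Of the members 2 had an unadjusted p under 0.05. The edgeR quasi-likelihood test on recovered reads called 0, against 2.03% of genes, and DESeq2 called 1 lower, Rps2, against 3.31%. All KO cortex libraries were below all WT cortex libraries for 33 members and above for 0, against 12.2% and 16% of all genes.

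Without WT cortex library 2 the values moved toward 0. The median log2 fold change was -0.04, with 63 members negative and 19 positive, and 5 members fell and 0 rose, against 10.4% and 11% of the 21927 genes tested. KO cortex was below both remaining WT cortex libraries for 33 members and above for 2, against 24.8% and 25% of all genes. With edgeR 9 fell, against 11% of genes, and with near-identical copies added 7 fell, against 10.6%. The 5 were Rps2, Rplp1, Rpl13, Rpl13a and Rpl34. Rps2 held 4681, 4773 and 5401 in KO cortex and 6382, 8853 and 5944 in WT cortex. Its groups did not overlap, and its log2 fold change was -0.49 ± 0.15 with the 6 libraries (limma adjusted p = 0.15) and -0.32 without WT library 2 (limma adjusted p = 0.0087). Rplp1, an acidic protein of the stalk, held 13038, 12628 and 13348 in KO cortex and 14108, 20297 and 14103 in WT cortex. It stood at -0.29 ± 0.14 with the 6 libraries and at -0.12 without WT library 2 (limma adjusted p = 0.024). Rpl34 held 3314, 2967 and 3234 in KO cortex and 3578, 5295 and 3572 in WT cortex, with -0.36 ± 0.15 for the 6 libraries and -0.17 without WT library 2.

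Rpl13a, a target of phosphorylation in interferon-treated cells, and Rpl13 fell by less, with log2 fold changes of -0.08 and -0.10 without WT library 2 and limma adjusted p of 0.045 and 0.035, beside -0.23 and -0.26 with the 6 libraries. Rpl17, which reaches into the exit tunnel, had the lowest value with the 6 libraries, -0.73 ± 0.35. It held 565, 641 and 527 in KO cortex and 952, 1662 and 556 in WT cortex, so WT libraries differed by more among themselves than the groups did, and its value without WT library 2 was -0.34. Rpl23a followed with -0.57 ± 0.35, resting on 4701 normalized counts in WT library 2 beside 1757 and 1803 in the other WT libraries and 1640, 1710 and 1611 in KO cortex, and it stood at -0.11 without that library. Rpl36 and Rpl41 stood at -0.34 each with the 6 libraries and at -0.14 and -0.16 without WT library 2, and were not called by limma in either case. The highest values were those of Rpl15, Rpl4 and Rpl5, at -0.02, -0.05 and -0.06, which turned to 0.08, 0.05 and 0.08 without WT library 2, and none of these was called.

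Gene length moved with genotype in cortex too, apart from WT library 2. Protein-coding genes of over 12 kb took 10.5% to 10.6% of the signal in KO cortex. They took 12.2%, 8.995% and 12.1% in WT cortex libraries 1, 2 and 3. Without WT library 2, 51.2% of the genes tested in this class fell in cortex and 8.44% rose, with a median of -0.18. The count of members called in cortex also moved with the length correction. With the length trend removed and WT library 2 left out, 8 members rose and 1 fell, Rps2, against 19% and 7.87% of genes, with a median of 0.05 beside 0.06 for all genes. Other families differed among themselves in cortex without WT library 2. Of the mitochondrial ribosomal protein genes 5 rose and 0 fell, with a median of 0.02. Of the complex I genes 5 rose and 0 fell, also with a median of 0.02. The 3 ribosomal protein genes under other names had a median of -0.07, with 0 positive and 0 called. Of the 144 ribosomal protein pseudogenes tested 39 were positive, with a median of -0.07, and 0 rose and 3 fell. Without WT library 2, 11% of all genes rose and 10.4% fell. Over the members, the excess in WT library 2 was larger for shorter principal transcripts (Spearman's rho of -0.53 over 82 genes, which share libraries and are not independent).

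**Figure D4:**
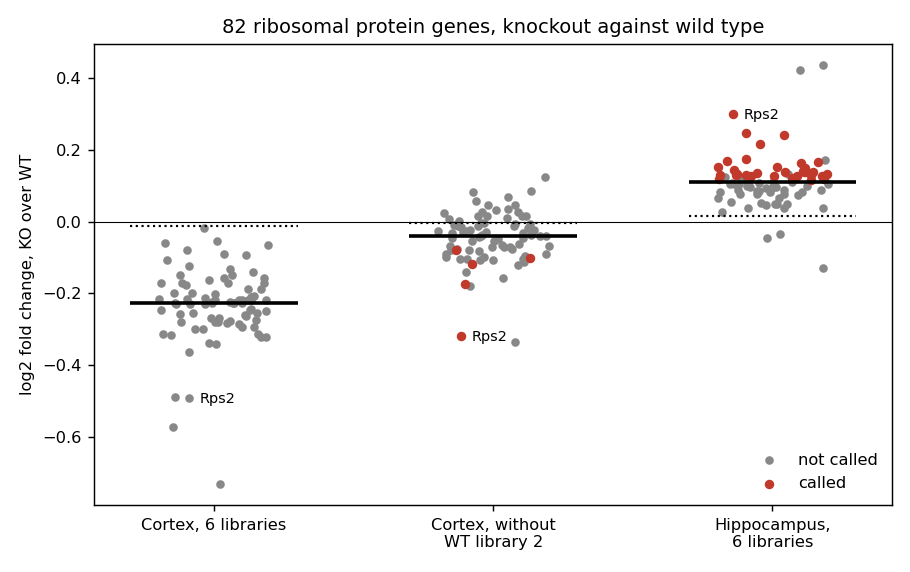
Each point is 1 of the 82 genes and the y axis its log2 fold change, KO over WT; solid bars mark the members' median and dotted bars the median of all genes tested. The members' median is -0.23 in cortex with 6 libraries, -0.04 without WT library 2 and 0.11 in hippocampus, where 32 points are called (red, limma adjusted p under 0.05).

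The effect of the knockout on the members was thus positive in hippocampus and negative or near 0 in cortex, and the difference itself was tested in 1 fit over the 12 libraries. The interaction, cortex effect minus hippocampal effect, was negative for all 82 members, with a median of -0.34, beside -0.01 over all genes tested. It was also mostly negative in the families most like them. Over the 78 mitochondrial ribosomal protein genes its median was -0.21, with 2 positive and 0 called. Over the 46 complex I genes the median was -0.24, with 2 positive and 0 called. Among the members the interaction was called for 1, against 0.963% of the 21282 genes tested that were called lower in cortex. Rps2 was that member, at -0.79 ± 0.17 (limma adjusted p = 0.031). It was not called when any 1 of the 6 KO libraries, or WT hippocampus library 1 or 3, was left out, with values between -0.76 and -0.86 and limma adjusted p between 0.055 and 0.088. Without WT cortex library 2 the median was -0.16 and 23 members were called lower in cortex, against 3.07% of all genes, and Rps2 remained among them at -0.62. The next smallest p belonged to Rpl41 (-0.49 ± 0.17), Rps12 (-0.40 ± 0.14), Rpl14 (-0.41 ± 0.14) and Rps27rt (-0.93 ± 0.34), with limma adjusted p between 0.13 and 0.14. Without WT cortex library 2 they stood at -0.31, -0.25, -0.24 and -0.62, and all but Rps27rt were called. Rps12, a small-subunit protein, held 3497, 3592 and 3541 in KO hippocampus and 3280, 3166 and 3218 in WT hippocampus, and 2640, 2348 and 2415 in KO cortex and 2606, 3640 and 2727 in WT cortex. Rps2, Rplp1 and Rpl13a are the 3 members that rose in hippocampus and fell in cortex without WT library 2. Of all genes 14.1% rose in hippocampus and 10.4% fell in cortex without that library, and the share that did both was not counted. The labels used here do not tell whether a mouse gave both a cortex and a hippocampus library.

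Near-identical copies limit what can be said of single members. Of the 82, 78 have at least 1 other gene in the annotation whose transcript matches at least 80% of the coding sequence at 95% identity or more, with a median of 5 such copies and a maximum of 57 for Rpl21. The other 4 have none, and among these Rpl8 and Rps3 rose in hippocampus, by 0.14 ± 0.04 and 0.12 ± 0.03. Members with at most 2 copies had a hippocampal median of 0.12 with 10 of 19 called, and members with 10 or more had 0.13 with 7 of 17 called. When each member was counted together with its copies, an alternative chosen after seeing the data, 31 rose in hippocampus, against 14.3% of genes.

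Rps2 is the member called in the interaction, and its share of the signal of its family did not overlap between the genotypes in either tissue. The share rests on the same Rps2 counts as that call, so it is no separate evidence. How often the shares of the other members overlap was not counted. It has 23 copies, and an exon of the RNA gene Snhg9 overlaps it on the other strand. The copies together held 13676, 14428 and 14227 normalized counts in KO hippocampus and 12850, 14064 and 13192 in WT hippocampus, more than Rps2 itself. In cortex they held 10257, 10050 and 9701 in KO and 9663, 12417 and 9932 in WT, so the KO values lie within the WT range. The Rps2 gene took 40.2%, 39.7% and 40.0% of the family's signal in KO hippocampus and 37.8%, 34.7% and 36.4% in WT hippocampus. In cortex it took 31.3%, 32.2% and 35.8% in KO and 39.8%, 41.6% and 37.4% in WT. With the copies added, Rps2 rose in hippocampus by 0.16 (limma adjusted p = 0.017), stood at -0.23 in cortex and was no longer called in the interaction (-0.40, limma adjusted p = 0.11), where 0 members were, against 0.996% of genes. With WT cortex library 2 also left out, Rps2 with its copies stood at -0.09 in cortex (limma adjusted p = 0.024) and at -0.26 in the interaction (limma adjusted p = 0.0045). In that setting 28 members were called lower in the interaction, against 3.18% of genes.

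Rpl23a, which overlaps an exon of Tlcd1 on the other strand, differed less with its copies. With its 19 copies added, its hippocampal log2 fold change was 0.12 (limma adjusted p = 0.034), against 0.42 for the gene alone. The gene alone took 22.6%, 32.3% and 18.1% of the family's signal in KO hippocampus and 18.8%, 18.9% and 19.7% in WT hippocampus, with the highest share in KO library 2. Rpl17, with 22 copies, was at -0.73 in cortex alone and at -0.24 with its copies, and at -0.34 and -0.03 without WT library 2. Rpl3 and Rpl4 changed little: their hippocampal values were 0.20 and 0.22 with copies added, both called.

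The Rps27 family shows how far apart such genes can be in sequence, and the first 60 coding bases are given with capitals where a gene differs from Rps27.
Rps27: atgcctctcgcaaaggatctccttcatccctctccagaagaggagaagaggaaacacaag
Rps27l: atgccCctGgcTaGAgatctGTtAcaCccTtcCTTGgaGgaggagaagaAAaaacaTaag
Rps27rt: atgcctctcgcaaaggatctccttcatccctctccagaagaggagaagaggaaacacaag
Rps27 lies on chromosome 3 with 4 exons, Rps27l on chromosome 9 with 4 and Rps27rt on chromosome 9 with 1. Over the whole coding sequence Rps27l is 76.2% identical to Rps27 and Rps27rt is 100% identical, so reads from the coding sequence cannot tell the pair apart. Rps27 held 7197, 6784 and 7068 in KO hippocampus and 6886, 6653 and 6781 in WT hippocampus, far above both relatives in these tables. It overlapped between the genotypes and was not called in either tissue.

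Rpl22 and Rpl22l1, a pair that can regulate each other in mouse cells, are 68.2% identical in coding sequence. Rpl22 held 6731, 6516 and 6843 in KO hippocampus and 6207, 6421 and 6200 in WT hippocampus, and Rpl22l1 held 2202, 2480 and 2540 against 2141, 2022 and 2240. Neither was called in hippocampus (0.09 ± 0.04 and 0.17 ± 0.07). Rpl36a and Rpl36al, 87.7% identical, were at 0.05 ± 0.04 and 0.08 ± 0.05, and Rpl7 and Rpl7l1, 54% identical, at 0.08 ± 0.04 and 0.12 ± 0.06, none of them called. Rpl10 and Rpl39, the paralogues of genes under the minimum, were at 0.05 ± 0.05 and 0.06 ± 0.05, not called either. Rps4x, on chromosome X, rose by 0.12 ± 0.04 (limma adjusted p = 0.041).

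The members' messages per kilobase of principal transcript differed 42.5-fold in WT cortex and 68.4-fold in WT hippocampus from the lowest to the highest member. In hippocampus Rplp1 was highest, with 40547 ± 643 normalized counts per kb in KO and 37296 ± 782 in WT (SD, n = 3 each). Rps15, a protein of the small subunit's head, followed with 31286 ± 473 in KO and 28725 ± 366 in WT. Rps29, among the smallest ribosomal proteins, had 28596 ± 691 in KO and 26461 ± 556 in WT, and Rps21 had 22348 ± 677 in KO and 20855 ± 97.8 in WT. The 4 neighbours in this order were separated by more than their SD in both genotypes, and they hold the same order in cortex. At the low end Rpl7l1 had 1051 ± 26.9 per kb in KO hippocampus and 971 ± 72.4 in WT, and Rps27l had 980 ± 12 in KO and 1080 ± 165 in WT. Rps27rt had 936 ± 172 in KO and 689 ± 113 in WT, and Rpl17 had 595 ± 45.7 in KO and 546 ± 89.0 in WT. In WT hippocampus Rpl7l1 and Rps27l do not differ beyond their SD, and neither do Rps27rt and Rpl17. The order depends on the transcript taken as principal and on how reads were split with copies.

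**Figure D5:**
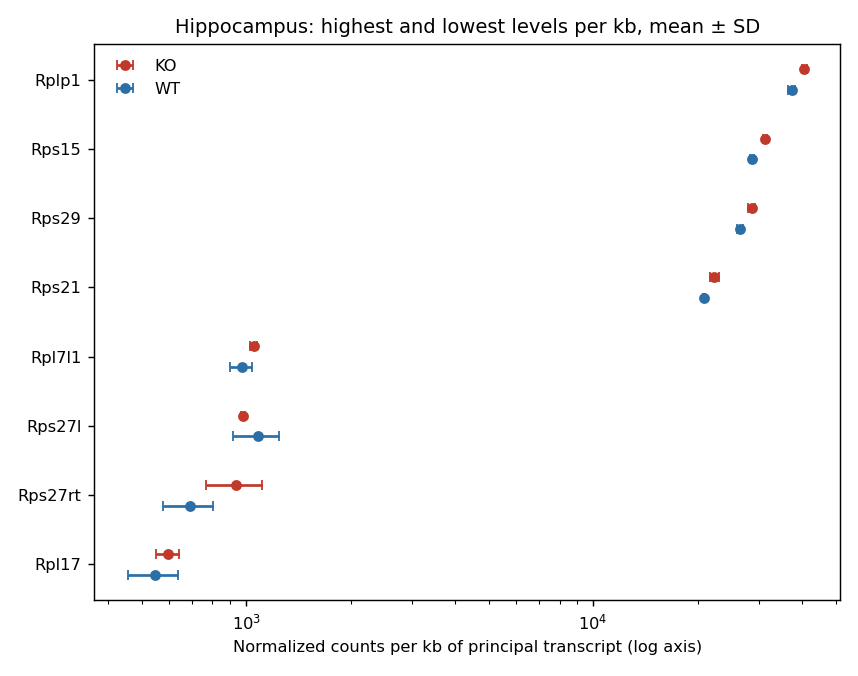
The x axis (log scale) is the level in normalized counts per kb of principal transcript in KO hippocampus (red) and WT hippocampus (blue), as mean ± SD of 3 libraries, for the 4 highest and 4 lowest members. The highest, Rplp1, had 37296 per kb in WT and the lowest, Rpl17, had 546.

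Ribosomal proteins known under other names include Fau, which makes Rps30 fused to a ubiquitin-like protein, and Rack1, a scaffold on the small subunit. Fau had a hippocampal log2 fold change of 0.09 ± 0.03 and was not called (limma adjusted p = 0.0929). Rack1 rose by 0.14 ± 0.04 (limma adjusted p = 0.035), with 9928, 10591 and 10631 in KO hippocampus and 9295, 9544 and 9389 in WT hippocampus.

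Factors that act on the ribosome during translation were also higher in KO hippocampus, where 14.1% of all genes rose and 15.1% fell. Of 13 elongation genes 6 rose and 0 fell, with a median log2 fold change of 0.14, and Btf3, part of the complex that meets the emerging chain, rose by 0.18 ± 0.04 (limma adjusted p = 0.013). Eif5a, which helps the ribosome through hard stretches, rose by 0.17 ± 0.04 (limma adjusted p = 0.011). Of 30 initiation genes 14 rose and 0 fell, with a median of 0.16. Eif3d, a subunit of the factor that binds the small subunit, held 5553, 5654 and 5476 in KO hippocampus and 4808, 4674 and 4547 in WT hippocampus and rose by 0.25 ± 0.04 (limma adjusted p = 0.0031). Pabpc1, the poly(A)-binding protein and itself made from a TOP message, rose by 0.28 ± 0.05 (limma adjusted p = 0.0036). In cortex with the 6 libraries 0 of the elongation and 0 of the initiation genes were called by limma, and 2 and 6 had an unadjusted p under 0.05. Without WT library 2, 4 of the 13 and 12 of the 30 rose and 0 fell there, where 11% of all genes rose and 10.4% fell.

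Genes for ribosomal RNA synthesis and ribosome assembly moved both ways in hippocampus, with 15 of 41 higher, 3 lower and a median of 0.14. Of all genes 14.1% rose and 15.1% fell there. Mdn1, the large ATPase that remodels pre-60S particles, fell to 2715, 2717 and 2689 normalized counts in KO hippocampus, against 5494, 5696 and 5758 in WT hippocampus, a log2 fold change of -1.06 ± 0.04 (limma adjusted p = 1.6e-05). Polr1a, the largest subunit of RNA polymerase I, fell by 0.39 on the log2 scale (limma adjusted p = 4.8e-04). With the length trend removed, Mdn1 stood at -0.47 (limma adjusted p = 5.4e-04). Polr1a stood at -0.04 in that setting and was not called (limma adjusted p = 0.51). Of 24 genes of mTORC1 and of the control of TOP messages 4 rose and 5 fell in hippocampus, with a median of 0.04. These counts are close to the shares over all genes. Mtor, the kinase itself, held 7886, 8403 and 7858 in KO hippocampus and 10491, 12224 and 11163 in WT hippocampus, a log2 fold change of -0.49 ± 0.06 (limma adjusted p = 0.0012). With the length trend removed Mtor stood at -0.21 (limma adjusted p = 0.037). Tsc1, a brake on mTORC1, stood at -0.54 ± 0.05 in hippocampus (limma adjusted p = 2.4e-04) and at 0.11 ± 0.13 in cortex, or -0.04 ± 0.03 without WT cortex library 2. Larp1 held 13934, 14161 and 13555 in KO hippocampus and 13267, 14113 and 13351 in WT hippocampus and was not called (0.03 ± 0.04).

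Genes that watch over ribosomes and new chains included 2 of 12 higher and 3 lower in hippocampus, with a median of 0.02. Of all genes 14.1% rose and 15.1% fell in hippocampus. Huwe1, a large ubiquitin ligase that can act on unassembled ribosomal proteins, fell to 23416, 22947 and 22398 in KO hippocampus, against 38057, 43977 and 40936 in WT hippocampus. Its log2 fold change was -0.84, or -0.22 with the length trend removed (limma adjusted p = 7.8e-05 and 0.019). Of 8 RNA genes that host small nucleolar RNAs in TOP transcripts 2 rose in hippocampus, Gas5 by 0.13 ± 0.04 and Snhg6 by 0.29 ± 0.08, and all 8 log2 fold changes were positive. Of 8 long RNAs that stay in the nucleus 4 fell, with a median of -0.34. Malat1, an RNA of nuclear speckles, stood at -0.95 ± 0.11 in hippocampus and at -0.95 ± 0.14 in cortex (limma adjusted p = 8.9e-04 and 0.027), and at -1.10 in cortex without WT library 2. Its cortical call was lost when any 1 library other than WT library 2 was left out. Miat fell by 0.64 in hippocampus (limma adjusted p = 1.4e-04). Their part in the members' change was not tested.

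Markers of other cell types and of neighbouring regions moved with genotype too. Of all genes 14.1% rose and 15.1% fell in hippocampus, and 1.94% were called in cortex with the 6 libraries. Without WT library 2, 11% rose and 10.4% fell in cortex. In KO cortex the 10 markers of striatum summed to 40020 to 64010 normalized counts, against 18260 to 18860 in WT cortex, with 8 called higher and 10 without WT library 2. The 8 choroid plexus markers summed to 9248 to 18460 in KO hippocampus and to 12730 to 351100 in WT hippocampus, with 0 called by limma and 7 at an unadjusted p under 0.05. In hippocampus 7 of 8 microglia markers rose (30440 to 31820 summed in KO, 21110 to 25280 in WT), as did 4 of 6 oligodendrocyte markers (432000 to 501000 in KO, 397600 to 402600 in WT) and 4 of 6 astrocyte markers (157000 to 162400 in KO, 126900 to 144500 in WT). Of 5 excitatory neuron markers 2 rose, and of 6 markers of the dentate gyrus and CA fields 1 rose and 2 fell. In cortex 0 of 6 oligodendrocyte markers were called by limma with the 6 libraries, 4 had an unadjusted p under 0.05, and 6 rose without WT library 2. Of the 8 microglia markers 1 rose in cortex, and 3 without WT library 2. Of the 6 astrocyte markers 1 fell in cortex with and without that library, with a median of -0.11 each time. The interaction with all 12 libraries was positive for 0 microglia and 0 astrocyte markers, with medians of -0.30 and -0.31. It was called lower in cortex for 0 and 1 of them. The meningeal markers (8 genes) summed to 19890 to 35080 in KO cortex and to 42770 to 58090 in WT cortex, with 1 lower and 3 lower without WT library 2, and the 5 endothelial markers to 13710 to 13840 in KO hippocampus and 11250 to 27000 in WT hippocampus, with 0 called by limma and 1 at an unadjusted p under 0.05. None of the marker lists had a gene at 0 in all libraries of a tissue. Their part in the members' change was not tested.

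Beyond their product many members share a small size and a snoRNA gene within them. In 30 members, 36.6%, a snoRNA gene lies inside the gene on the same strand, against 1.62% of the protein-coding genes tested in hippocampus. These 30 had a hippocampal median of 0.12 with 14 called, and the other members 0.11 with 18 of 52 called. An exon of another gene overlaps 19 members on the opposite strand and 5 on the same strand. The strand setting of the counting is not stated in the labels, so reads of such pairs cannot be told apart. The members lie on 19 chromosomes, with 14 on chromosome 7 and 1, Rps23, on chromosome 13 at a distance of 17.3 Mb from Tert. Rps23, at the decoding site, was not called in either tissue (0.11 ± 0.04 in hippocampus, -0.28 ± 0.15 in cortex, -0.10 ± 0.04 in cortex without WT library 2).

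In the promoter windows of 250 bases before and 50 after the start, several short motifs were found more often than in all such windows, searched on both strands. CCGGAA, the core bound by ETS factors, was in 49.3% of the members' windows and in 14.9% of all. GGGCGG, the core bound by Sp1, was in 61.6% and 35.7%, and AAGATGGC, bound by YY1, in 11% and 2.75%. TGACGTCA, bound by CREB and ATF factors, was in 6.85% and 1.79%, CACGTG, bound by Myc, in 11% and 7.15%, and TATAAA in 9.59% and 13.6%. Each motif was counted on its own, so matches of different motifs may share bases, and a match describes letters, not binding.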

How the data were processed

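The authors deposited 1 table per tissue whose values are a signal named normalized counts, with 55487 gene rows. STAR, HTSeq, DESeq2 and GRCm38 appear in the submitters' processing notes; versions, strand setting and read length were not stated there or in the labels. Within a library the deposited values were whole multiples of 1 step (100% within 0.001 of a whole number), and the values divided by it were taken as recovered reads. The steps of WT cortex libraries 1 and 2 lie close to 1 (0.991 and 1.002), but of their values above 0 100% were whole at that step and 0.0696% and 0.0543% at a step of 1. The tables were scaled separately, so tests stay within a tissue or compare effects.

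Symbols, coordinates and lengths come from the GENCODE annotation of GRCm38 (55227 rows matched, 260 did not). Columns of other samples numbered 0. Genotypes were compared with limma 3.58.1 in R 4.3.3 on log2(normalized count + 1), which understates changes of low genes, for genes averaging 10 or more, with a prior variance that follows expression and Benjamini-Hochberg adjustment over all genes; a gene was called at an adjusted p under 0.05. Log2 fold changes are KO over WT ± SE. The difference between tissues was the interaction term of 1 fit over 12 libraries, taken as independent. edgeR 4.0.16 and DESeq2 1.42.0 on recovered reads were alternatives. The fits were also run on simulated data, with planted changes larger than the 0.12 to 0.30 of the members that rose in hippocampus. The simulated libraries had no outlier, no length trend and no reads shared with copies. The simulation therefore does not show how reliable the members' calls are. Copies were found with blastn 2.17.0. Levels per kb use the longest principal transcript.

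The members, lists and tests were chosen with earlier results of these data known. Members were named by smallest p (6 per tissue, 5 for the interaction), the 3 highest and 3 lowest log2 fold changes per tissue, the 4 highest and 4 lowest levels per kb, paralogue pairs and the P stalk; other genes named were chosen after their values were seen. Some genes that entered the fits and counts are not reported by name here. Up to 2 genes of each list with the smallest p per tissue could be named. Protein sequences were not used here, so identity between paralogues is that of coding sequence.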

Additional observations from a re-analysis of the deposited data

Results flagged for a closer look

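The knockout effect differed between the tissues, by the interaction term of the fit over 12 libraries, for Rps2 (-0.79, cortex minus hippocampus) among the members. Among the other genes named, it differed for Tsc1 (0.65, limma adjusted p = 0.038) and for Miat (0.89, limma adjusted p = 0.045). Rps2 was lower in 3 of 3 KO cortex libraries and higher in 3 of 3 KO hippocampus libraries than every WT library of the tissue, and the difference was not called with its copies added (-0.40). Without WT cortex library 2 the differences were -0.62, 0.50 and 0.66. None of the 3 was called for the difference when any 1 of the 6 KO libraries, or WT hippocampus library 1 or 3, was left out.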

How the results depend on the processing

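Over 21 alternatives in cortex, 18 in hippocampus and 25 for the difference between tissues, the directions of the members' medians held, except in cortex with the length trend removed and WT library 2 left out (0.048), where 60 of 82 members were positive, against 19 with WT library 2 left out alone, and 8 rose, among them Rpl15 (0.165), Rpl3 (0.126), Rpl4 (0.139) and Rps4x (0.0935). Copies added, and every setting that joins the absence of WT cortex library 2 with another choice, were chosen after seeing the data. Members called in cortex numbered 1 with DESeq2, against 3.31% of genes lower. Without WT library 2 they numbered 7 with copies added and 9 with edgeR, against 10.6% and 11% lower. With the length trend also removed they numbered 9, against 19% of genes higher and 7.87% lower. Leaving out 1 library gave 0 to 5. In hippocampus the members called numbered 4 with no prior variance trend, 19 with TMM factors and 4 to 28 leaving out 1 library. They numbered 74 with the length trend removed, against 27.7% of genes higher. Medians there were 0.0925 (edgeR), 0.0967 (DESeq2) and 0.244 (length trend removed). For the difference the members called numbered 0 with genes averaging above 0 kept, 0 with no prior variance trend and 0 to 23 leaving out 1 library. They numbered 0 with copies added, against 0.996% of genes lower, and 28 with WT cortex library 2 also left out, against 3.18%. Shares over all genes were not counted where none is given here or above. Replicate numbers did not pair KO with WT samples within a tissue: same-numbered KO and WT samples had correlations of their deviations between -0.065 and 0.091. Same-numbered cortex and hippocampus samples were not compared in this way. A fit with the replicate number as a block called 18 members in hippocampus, against 12.6% of genes, and 0 for the difference, and of the 139 other genes 1 in cortex and 0 for the difference. Those 139 gave, in cortex, 1 with genes averaging above 0, 0 with no trend, 1 with quantile normalization, 9 with DESeq2, 7 with the length trend removed, 0 to 34 leaving out 1 library and, without WT library 2, 36 with copies added, 33 with edgeR and 65 with the length trend removed, beside 2 as reported. In hippocampus they gave 37 with no trend, 99 with the length trend removed and 28 to 75 leaving out 1 library (28 without WT library 3, 33 without KO library 2), beside 59, and for the difference 0, 0, 4, 5, 11 and 4 with genes averaging above 0, no trend, quantile normalization, edgeR, DESeq2 and the length trend removed, 13 with copies added without WT cortex library 2 and 0 to 13 leaving out 1 library, beside 2. A pyrimidine run was in 53.4% of windows at a minimum of 5 and 28.8% at 8. Causes of these shifts were not tested. With 3 libraries per group and a median change of 1.08-fold, calls rest on small spreads; reads shared with copies, unknown strand and WT cortex library 2 limit single members.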
